A study of Mus musculus with 14 samples.

Results

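The 8 genes described here, Cpa3, Kit, Kitl, Gata2, Hdc, Tph1, Cd34 and Ly6a, are known from mast cells and haematopoietic progenitors and were measured in group 2 innate lymphoid cells (ILC2s) sorted from mouse lung. They are 8 of 53278 genes in each expression table, and all 8 were matched by symbol in the counts and in the TPM values (transcripts scaled to gene length and to a common total). They were selected on measured values: Cpa3 for its lower level in IL-33 stimulated than in unstimulated ILC2s, and Cd34 and Kitl for their difference between Blimp-1-deficient and Control ILC2s, so those contrasts are given for these genes as a description with no test. The other members were listed with earlier results of the same data in view.

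ILC2s were sorted from whole lungs of female mice as live, lineage-, CD90.2+, CD3- cells and cultured in complete RPMI, and each of the 14 bulk libraries is labelled with 1 mouse, although the study's figure legends describe sorted samples as pools of 2 animals, so whether a library holds 1 mouse or a pool is not settled. In the IL-33 experiment, 4 libraries of B6 cells were left unstimulated and 4 received IL-33 at 20 ng/mL for 24 hours, and the labels do not say whether an unstimulated and a stimulated library with the same number share a mouse. The labels and methods place the unstimulated cells in culture, while the study elsewhere calls them ex vivo cells, so whether they spent the same 24 hours in culture is not settled, and an effect of culture and of IL-33 cannot be told apart if they did not. In the Blimp-1 experiment, cells of 3 ControlIL7RaCre mice (Control) and 3 age-matched Blimp-1IL7RaCre mice (Blimp-1-deficient) were all held for 72 hours with IL-25 and IL-33 (20 ng/mL of either), and IL-2 is mentioned in the study's methods but not in the labels. Cre under the IL7Rα gene deletes floxed Prdm1, the gene of Blimp-1, in T, B and NK cells and all ILCs, so the mice lacked Blimp-1 in more than ILC2s, and the labels name the Cre in both genotypes. Because culture time and cytokines differ between the experiments, they were never fitted together.

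As background, mast cells arise from haematopoietic progenitors under the receptor tyrosine kinase KIT and its ligand stem cell factor (Kitl), with GATA2 as a central transcription factor. They store carboxypeptidase A3 (Cpa3), histamine made by histidine decarboxylase (Hdc) and, in rodents, serotonin made through tryptophan hydroxylase 1 (Tph1). CD34 and Sca-1 (Ly6a) are surface proteins used to recognise haematopoietic stem and progenitor cells, although KIT, Sca-1 and TPH1 are also known from ILC2s or their precursors.

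Library totals ran between 10470125 and 32849428 counts with and without IL-33, and between 13570188 and 76448945 counts for Control and Blimp-1-deficient cells. A pair of libraries stood apart. Control replicate 2 had 76.8% of its counts on 7 rRNA-related loci, against 0.258% to 4.12% in the other 13 libraries, and its log2 ratios to the other Control libraries had standard deviations (SD) of 1.71 to 1.78 across genes, against 0.395 to 0.488 for the other pairs of that experiment. IL-33 stimulated replicate 3, the shallowest library, had SDs of 1.80 to 1.87 against 0.396 to 0.511. Results are therefore given with and without these libraries. Prdm1 was at 75.2, 92.8 and 74.0 CPM (counts per 1000000 counts of the scaled library) in Control and 14.6, 11.5 and 11.4 CPM in Blimp-1-deficient libraries (log2 fold change -2.68, standard error (SE) 0.15, edgeR adjusted p = 0.0044). All 17 ILC2 markers examined, among them Gata3, Il1rl1, Il7r and Icos, were above the count filter in both experiments. After IL-33 edgeR called 4 of the 17 higher and 11 lower, the named 4 among the lower (median log2 fold change -0.47), against 16.2% and 16.1% of all genes. For Blimp-1 loss 0 were called with all libraries (7 at an unadjusted p below 0.05). Without Control replicate 2, 4 were higher and 6 lower, against 8.25% and 5.72% of all genes.

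The 250 bases before the RefSeq start site of Cpa3, Tph1 and Cd34 are printed to show the start regions of the 3 genes with the widest differences between groups. They come from RefSeq on GRCm38.p6 and are written 5′ to 3′ on the strand of the gene, with the GATAA motif, a core that GATA factors recognise, in capitals. Cpa3 lies at chr3:20242182-20242431 on the minus strand, Tph1 at chr7:46672538-46672787 on the minus strand and Cd34 at chr1:194938571-194938820 on the plus strand.
Cpa3: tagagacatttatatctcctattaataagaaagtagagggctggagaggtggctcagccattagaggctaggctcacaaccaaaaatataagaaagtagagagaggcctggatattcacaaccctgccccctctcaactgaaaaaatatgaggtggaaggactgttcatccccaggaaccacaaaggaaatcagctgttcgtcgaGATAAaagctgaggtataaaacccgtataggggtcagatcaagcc
Tph1: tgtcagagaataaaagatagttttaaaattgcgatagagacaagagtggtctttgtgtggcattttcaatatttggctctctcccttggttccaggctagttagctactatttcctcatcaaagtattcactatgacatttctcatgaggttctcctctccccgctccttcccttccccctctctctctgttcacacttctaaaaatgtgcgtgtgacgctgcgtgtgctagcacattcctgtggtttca
Cd34: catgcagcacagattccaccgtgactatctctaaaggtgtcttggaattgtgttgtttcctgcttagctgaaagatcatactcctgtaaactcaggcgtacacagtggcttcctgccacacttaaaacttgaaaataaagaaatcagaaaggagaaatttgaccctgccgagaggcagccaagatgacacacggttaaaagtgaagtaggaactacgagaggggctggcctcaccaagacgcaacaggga
RefSeq entries were matched for 7 of the 8 genes, with 10 entries in all, and Ly6a had no entry. Both strands were searched for GATAA and for GNGAAAG, a core of the Blimp-1 motif, and the motifs share no overlap in these windows. GATAA was present in 1 of the 10 entries, 45 to 41 bases before the start of Cpa3, and in 22.6% of 32851 RefSeq promoter entries of the same length. GNGAAAG was present in 0 of the 10 entries and in 19.4% of all entries. These matches describe letters and show no binding.

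Of the 7 members that were not chosen on the IL-33 contrast, all 7 passed the filter on low counts, Cd34 and Tph1 rose with IL-33, Kit fell, and 4 did not pass the test. Across all 15466 genes tested, 32.3% were called at an adjusted p below 0.05, 16.2% higher and 16.1% lower, so a share of 3 in 7 is near the background. The CPM of both groups did not overlap for 3 of the 7 members, against 37.9% of all genes. Without IL-33 stimulated replicate 3, 5 of the 7 were called, 2 higher and 3 lower, against 57.2% of 15733 genes (27.5% higher and 29.7% lower), and 5 did not overlap, against 58.7%. Of the 6 members not chosen on the Blimp-1 contrast, 5 passed the filter and 0 were called by edgeR, 1 of them (Kit) having an unadjusted p below 0.05. DESeq2 and limma voom with sample weights also called 0, with 1 and 3 at an unadjusted p below 0.05. Of all 17335 genes tested there, 0.756% were called, 0.45% higher and 0.306% lower. Only Kit did not overlap between the Control and Blimp-1-deficient groups among those 6, against 22.6% of all genes. Without Control replicate 2, Gata2 was called, against 14% of 17968 genes (8.25% higher and 5.72% lower), and 3 of the 6 did not overlap, against 50.5%.

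**Figure D1:**
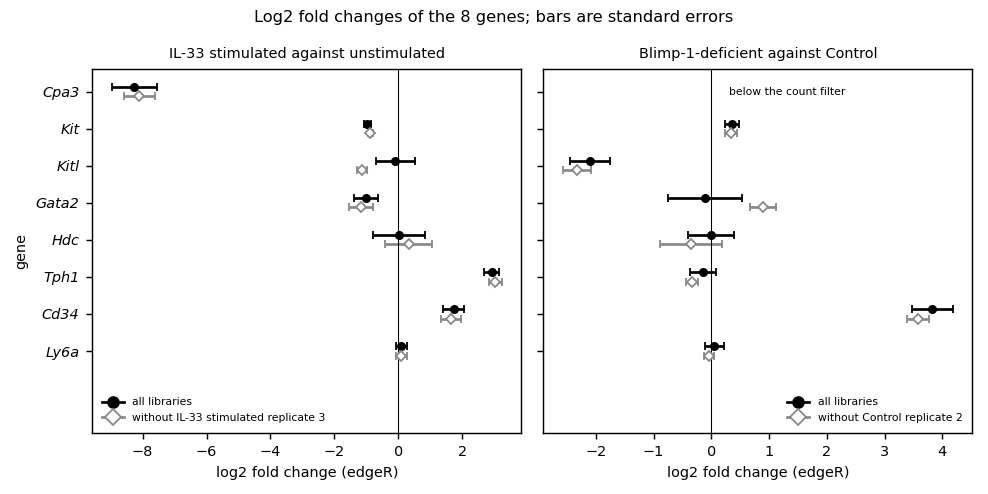
Log2 fold changes of the 8 genes (horizontal axis) from edgeR, IL-33 stimulated against unstimulated on the left and Blimp-1-deficient against Control on the right, with bars of 1 standard error. Black points use all libraries and open diamonds leave out IL-33 stimulated replicate 3 or Control replicate 2, and Kitl on the left and Gata2 on the right are the genes whose point moves most.

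Cpa3, the granule carboxypeptidase of mast cells (chromosome 3, 20215620 to 20242181, GRCm38, ENSMUSG00000001865.2), had 9.76, 12.8, 12.5 and 6.68 CPM in the 4 unstimulated libraries. In the 4 IL-33 stimulated libraries it had 0.0329, 0, 0 and 0.0708 CPM. The lowest unstimulated library was thus far above every stimulated one, on 1235 counts in the unstimulated group and 3 counts in the stimulated group. The ratio of the depth-adjusted levels was 345 (95% counting interval 118 to 1675), and 310 (106 to 1504) without IL-33 stimulated replicate 3. These intervals cover counting error only and are no test, since the gene was chosen on this contrast. As a description, the fitted log2 fold change was -8.26, which depends on the prior count of the fit. Because these are bulk libraries, fewer cells carrying a transcript and less transcript per cell cannot be told apart, here and in every result that follows.

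Cpa3 was close to the detection limit in the Blimp-1 experiment and did not pass the filter. It had 4, 3 and 5 counts in the Control libraries (0.0482, 0.731 and 0.0528 CPM) and 9, 17 and 5 counts in the Blimp-1-deficient libraries (0.109, 0.219 and 0.0517 CPM). The groups overlapped, and the 0.731 CPM of Control replicate 2 rests on 3 counts in a library with a small effective total. Set beside the unstimulated libraries of the other, separately scaled table, all 6 had less Cpa3 than any of them.

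Of the 13 defining markers of mast cells and basophils, most were at or near 0 counts, while Cd200r3 held most of their summed level. Mcpt1, Mcpt2, Ms4a2, Mrgprb2 and Prss34, which encode mast cell and basophil proteases and receptors, were at 0 counts in all 8 libraries of the IL-33 experiment, and Mcpt1, Mcpt2, Mcpt4, Mrgprb1 and Mrgprb2 were at 0 in all 6 of the Blimp-1 experiment. Only Cd200r3, an activating receptor of basophils and mast cells, passed the filter in the IL-33 experiment, and it fell from 12.6, 17.8, 14.9 and 17.7 CPM to 0.756, 0.680, 1.58 and 0.956 CPM (log2 fold change -4.02, SE 0.31, edgeR adjusted p = 7.56e-05). The summed level of the 13 defining markers was 12.7 to 18.2 CPM unstimulated and 0.778 to 2.56 CPM after IL-33, and so moved with Cpa3. The same sum in the Blimp-1 experiment was 2.68 to 7.90 CPM in Control and 15.0 to 20.8 CPM in Blimp-1-deficient libraries, while Cpa3 stayed at or below 0.731 CPM. Cd200r3 there had a log2 fold change of 1.71 (SE 0.32, edgeR adjusted p = 0.0844), and of 1.50 (SE 0.17, adjusted p = 0.00327) without Control replicate 2. The part of mast cells or basophils in the Cpa3 values was not tested beyond these levels.

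The gate, lineage- and CD3- after depletion of lineage+ cells, is meant to remove T, B, myeloid and NK cells, yet markers of other cells were present and some moved with IL-33. Epithelial markers, made up mostly of Epcam, summed to 52.8 to 83.6 CPM unstimulated and 2.65 to 5.52 CPM after IL-33, and T cell markers to 55.5 to 68.0 and 15.6 to 29.7 CPM, both sums lower like Cpa3 and Kit. Of 2 epithelial markers tested Epcam was called lower, and of 8 T cell markers 3 (Cd3g, Cd4 and Cd28), against 16.1% of all genes. Without IL-33 stimulated replicate 3, 1 and 4 were lower, against 29.7%. B cell markers summed to 11.9 to 15.1 and 17.7 to 20.9 CPM, of which 3 genes were tested. Cd79b alone was called higher, against 16.2% of all genes, joined without IL-33 stimulated replicate 3 by Ebf1, called lower, against 29.7%. Myeloid markers (82.0 to 186 and 38.2 to 119 CPM) and NK cell markers (2.96 to 5.03 and 0.788 to 4.76 CPM) overlapped between the groups. Between Control and Blimp-1-deficient cells, T cell markers summed to 29.0 to 30.1 and 41.2 to 45.3 CPM, a sum raised mostly by Cd3g and Cd28, while the median log2 fold change of the 8 markers was -0.20 and edgeR called none of them (2 at an unadjusted p below 0.05, and 1 called by each of DESeq2 and voom). B cell (15.7 to 20.6 and 19.8 to 26.3 CPM), myeloid (27.4 to 112 and 31.8 to 104 CPM), NK cell (6.53 to 10.2 and 2.23 to 9.19 CPM) and epithelial markers (6.82 to 13.2 and 12.0 to 24.1 CPM) overlapped. Among NK cell markers edgeR called Eomes lower of 6 tested, against 0.306% of all genes lower with all libraries and 5.72% without Control replicate 2, and Eomes was called in both. DESeq2 and voom each called 2 NK cell markers lower, and the median was -1.06 against -0.02 over all genes. Of 10 myeloid markers tested 0 were called by edgeR with all libraries (median -0.27, 2 at an unadjusted p below 0.05, with 1 higher in DESeq2 and 3 in voom), while without Control replicate 2, 5 were higher (Adgre1, C1qa, C1qb, C1qc and S100a8) and 0 lower, with a median of 1.85 against 0.01 over all genes and shares of 8.25% and 5.72% of all genes. The part of these cells in the members' values was not tested.

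**Figure D2:**
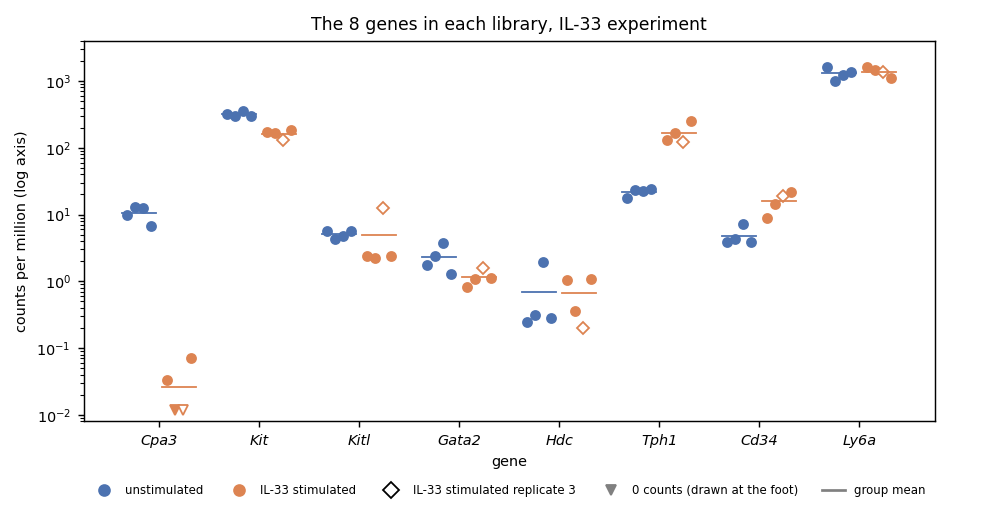
CPM on a log axis of the 8 genes in each unstimulated (blue) and IL-33 stimulated (orange) library, with lines at the group means, an open diamond for IL-33 stimulated replicate 3 and triangles at the foot for 0 counts. Cpa3 and Kit lie lower and Tph1 and Cd34 higher in all 4 stimulated libraries, and Kitl has 1 high stimulated library at 12.5 CPM.

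Kit, the receptor for stem cell factor (chromosome 5, 75574916 to 75656722), had 316, 299, 356 and 298 CPM in unstimulated libraries. It had 169, 165, 129 and 185 CPM after IL-33, and the groups did not overlap. Mean Kit thus fell to 162 ± 23.5 CPM (SD, n = 4) against 317 ± 27.0 CPM unstimulated (SD, n = 4), a log2 difference of -0.97 (SE 0.12, edgeR adjusted p = 0.000544), and of -0.87 (adjusted p = 5.99e-06) without IL-33 stimulated replicate 3. Among activated cells, Kit had 150, 136 and 146 CPM in Control and 183, 163 and 210 CPM in Blimp-1-deficient libraries. Every Blimp-1-deficient library was above every Control library, but the log2 difference of 0.36 (SE 0.12) did not pass the test (edgeR adjusted p = 0.303, and 0.0760 at a log2 difference of 0.33 without Control replicate 2). Unlike Cpa3, Kit stayed at 129 CPM or more in every library of both experiments.

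Kitl, which encodes the KIT ligand (chromosome 10, 100015630 to 100100416), had 5.59, 4.32, 4.84 and 5.73 CPM in unstimulated libraries. After IL-33 it had 2.37, 2.20 and 2.41 CPM in replicates 1, 2 and 4 and 12.5 CPM in replicate 3. In edgeR the size and the call of the difference thus rest on that library, with a log2 fold change of -0.09 (SE 0.60, edgeR adjusted p = 0.922) over all 8 libraries and -1.14 (SE 0.16, adjusted p = 0.00023) without it. Voom with sample weights called Kitl lower with all libraries. Among endothelial markers, Kdr and Tek stood highest of the stimulated group in the same library, with 12.8 and 7.39 CPM against 3.12 to 3.76 and 0.518 to 0.887 CPM in the other 3. The sum of all 13 endothelial markers differed less, at 205 CPM in that library against 169 to 191 CPM in the other 3. Without that library 11 of 12 endothelial and 8 of 11 fibroblast markers were lower after IL-33, as Kitl was, against 29.7% of all genes. Their part in the Kitl values was not tested.

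Kitl was chosen on the Blimp-1 experiment, where it had 30.7, 15.3 and 30.4 CPM in Control and 6.09, 8.05 and 4.00 CPM in Blimp-1-deficient libraries. All 3 Blimp-1-deficient libraries lay below all 3 Control libraries, with means of 25.5 ± 8.78 (SD, n = 3) and 6.05 ± 2.02 CPM (SD, n = 3). The ratio of means was 4.21, and 5.05 without Control replicate 2, and the fitted log2 fold changes were -2.10 and -2.33. The receptor gene Kit thus had the higher mean and its ligand gene Kitl the lower mean in Blimp-1-deficient cells, and the Kit difference did not pass the test.

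Of the 28 genes fixed as the KIT signalling list, 28 passed the filter in the IL-33 experiment, 2 rose (Jak2, Tec) and 7 fell (Kit, Fyn, Gab2, Pik3cd, Pik3r1, Sh2b3 and Dok1), with a median log2 fold change of -0.10. That is 9 called of 28, near the 32.3% of all genes. The edgeR calls of each list, above and below, are to be read against the share of all genes in the same comparison and setting. The printed shares are those of edgeR, so the calls of DESeq2 and voom cannot be read against them. Over all genes tested the median was 0.06 here and -0.02 in the Blimp-1 comparison. Jak2, a kinase that couples cytokine receptors to STAT factors, rose from 181 to 190 CPM up to 441 to 592 CPM (log2 fold change 1.54, SE 0.10, adjusted p = 3.06e-05). Tec, a non-receptor kinase, rose from 4.57 to 6.42 CPM up to 13.6 to 23.9 CPM (1.86, SE 0.21, adjusted p = 0.00039). Pik3cd, the catalytic p110δ subunit of PI 3-kinase in leukocytes, fell by 0.99 (SE 0.16, adjusted p = 0.00245). Without IL-33 stimulated replicate 3 the list had 8 higher and 9 lower, close to the 57.2% of all genes. Between Control and Blimp-1-deficient cells 0 of 28 were called by edgeR (median -0.01), 8 had an unadjusted p below 0.05, DESeq2 called 2 higher and 2 lower, and voom 3 higher and 4 lower. Kitl, chosen on this contrast, is counted among the genes tested and among those 8. Leaving out Control replicate 2, 4 were higher (Ptpn6, Sh2b3, Jak2 and Stat5b) and, besides Kitl, which was chosen on this contrast, 3 lower (Sos1, Plcg2 and Socs6), against 8.25% and 5.72% of all genes. Of these Sos1, an exchange factor that activates RAS, fell by 0.82 (SE 0.07, adjusted p = 0.00156).

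Other cytokines that mast cells grow on were read beside Kitl. Of 8 such genes, 7 passed the filter in the IL-33 experiment, 5 rose (Il3, Il4, Il9, Il10 and Il33) and 0 fell, with a median log2 fold change of 1.91 (the value of Il33, which Il3 and Il9, at or near 0 unstimulated, lie above). Without IL-33 stimulated replicate 3 the same 5 were higher and Kitl was lower. Il9, a cytokine that acts on mast cells, had 0.0694, 0, 0 and 0 CPM unstimulated and 3435 to 5313 CPM after IL-33, the largest level of the list. Il3, a growth factor of mast cells and basophils, had 0 counts in all unstimulated libraries and 1.84 to 3.72 CPM after IL-33. Blimp-1 loss gave 0 calls of 8 in edgeR (median 0.16), 3 at an unadjusted p below 0.05, and 2 higher and 1 lower in both DESeq2 and voom, Kitl, chosen on this contrast, counted among the genes tested. When Control replicate 2 was left out, Il3 and Il9 were higher. Il9 had 634, 156 and 456 CPM in Control and 1224, 1223 and 1631 CPM in Blimp-1-deficient libraries (log2 fold change 1.71, SE 0.48, adjusted p = 0.223, and 1.33, SE 0.18, adjusted p = 0.00568 without Control replicate 2). Il9 and Kitl were thus on opposite sides of the Control level. Summed growth factor CPM, made up mostly of Il9, was 205 to 692 in Control and 1249 to 1655 in Blimp-1-deficient libraries.

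Gata2, the GATA factor of early progenitors and mast cells (chromosome 6, 88193891 to 88207032), was low throughout. It had 1.77, 2.43, 3.74 and 1.29 CPM unstimulated and 0.821, 1.10, 1.58 and 1.13 CPM after IL-33. The groups overlapped through unstimulated replicate 4 and stimulated replicate 3, and the log2 difference of -1.005 (SE 0.38) did not pass the test (edgeR adjusted p = 0.0819), while without IL-33 stimulated replicate 3 it was -1.17 (SE 0.36, adjusted p = 0.0201). After 72 hours Gata2 had 1.89, 8.77 and 1.88 CPM in Control and 4.25, 3.57 and 2.69 CPM in Blimp-1-deficient libraries. Control replicate 2 alone was above the Blimp-1-deficient group, and the other Control libraries were below it. The log2 fold change was -0.11 (SE 0.65, adjusted p = 0.981) with all libraries and 0.90 (SE 0.22, adjusted p = 0.0398) without Control replicate 2. The direction depended on the libraries and on the scaling, since leaving out Blimp-1-deficient replicate 3 (0.0150) and scaling by library size alone (0.91) also turned the sign. Gata1, which shares its binding motif, had 1.28, 1.17, 1.53 and 0.693 CPM unstimulated and 0.131, 0.162, 0 and 0.177 CPM after IL-33 (log2 fold change -3.10, SE 0.54, adjusted p = 0.00317).

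Hdc, which makes histamine from histidine (chromosome 2, 126593667 to 126619299), was below 2 CPM in every library. It had 0.243, 0.315, 1.95 and 0.284 CPM unstimulated and 1.05, 0.356, 0.197 and 1.10 CPM after IL-33. Control libraries had 0.422, 0 and 1.65 CPM and Blimp-1-deficient libraries 0.568, 1.10 and 0.776 CPM. The groups overlapped in both experiments, with log2 fold changes of 0.02 (SE 0.82, edgeR adjusted p = 0.988) and of -0.00025 and -0.34 (adjusted p = 0.707) with and without Control replicate 2, and neither passed the test. Libraries of 1 group differed widely, with 46 counts in unstimulated replicate 3 against 7 to 11 in the other 3 and with 35, 0 and 156 counts in Control. Mcpt8, a basophil protease, was highest in the same libraries as Hdc, with 2.17 CPM in unstimulated replicate 3 against 0.0859 to 0.284 CPM in the other 3, and with 1.20 CPM in Control replicate 3 against 0.244 and 0.253 CPM. The part of basophils in those values was not tested.

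Tph1, the first enzyme of serotonin synthesis outside the nervous system (chromosome 7, 46644641 to 46672537), had 17.9, 23.3, 22.5 and 24.5 CPM in unstimulated libraries. It had 131, 164, 123 and 249 CPM after IL-33, with no overlap. The mean rose 7.56-fold, and the fitted log2 fold change was 2.92 (SE 0.24, edgeR adjusted p = 9.87e-05) with all libraries and 3.04 (adjusted p = 1.00e-06) without IL-33 stimulated replicate 3. At 72 hours it had 512, 353 and 656 CPM in Control and 466, 431 and 481 CPM in Blimp-1-deficient libraries. These groups overlapped (log2 difference -0.15, SE 0.23, adjusted p = 0.866), and without Control replicate 2 the difference was -0.34 (SE 0.11, adjusted p = 0.0813).

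Of 24 genes of histamine and serotonin synthesis, transport, breakdown and receptors, 15 passed the filter in the IL-33 experiment, 3 rose (Tph1, Maoa and Htr1b) and 2 fell (Pts and Hrh4), with a median log2 fold change of 0.37. Htr1b, a serotonin receptor, rose from 89.6 to 113 CPM up to 120 to 154 CPM (log2 fold change 0.47, SE 0.10, adjusted p = 0.0098). Pts, an enzyme that makes the tetrahydrobiopterin cofactor of tryptophan hydroxylase, fell by 1.32 (SE 0.14, adjusted p = 0.000252), while Gch1, the first enzyme of that cofactor pathway, had a log2 difference of 0.37 (SE 0.18, adjusted p = 0.148). Without IL-33 stimulated replicate 3 the counts were 8 higher and 3 lower of 16. Of the same list, 18 passed the filter in the Blimp-1 experiment, 0 rose and 1 fell (median -0.27). This was Maob, a monoamine oxidase, with 18.9, 13.2 and 13.8 CPM in Control and 3.43, 1.68 and 3.06 CPM in Blimp-1-deficient libraries (log2 fold change -2.49, SE 0.31, adjusted p = 0.0353). Leaving out Control replicate 2, 5 were lower (Slc6a4, Maob, Gch1, Qdpr and Htr1b) and 0 higher, against 5.72% and 8.25% of all genes.

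**Figure D3:**
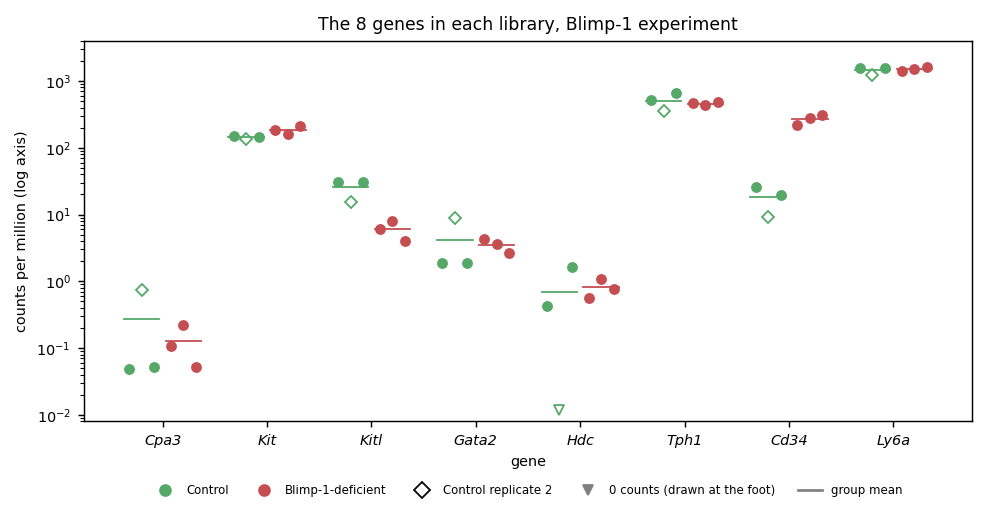
CPM on a log axis of the 8 genes in each Control (green) and Blimp-1-deficient (red) library, with lines at the group means, an open diamond for Control replicate 2 and a triangle at the foot for 0 counts. Cd34 lies higher and Kitl lower in all 3 Blimp-1-deficient libraries, and Control replicate 2 is the highest Gata2 library at 8.77 CPM.

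Cd34, a cell surface sialomucin (chromosome 1, 194938819 to 194961279), had 3.92, 4.35, 7.18 and 3.94 CPM in unstimulated libraries. After IL-33 it had 8.90, 14.6, 19.1 and 21.9 CPM, and no stimulated library was as low as an unstimulated one. The mean rose 3.33-fold (log2 fold change 1.73, SE 0.33, edgeR adjusted p = 0.00514, and 1.65, adjusted p = 0.00109, without IL-33 stimulated replicate 3). This test is on an experiment that did not choose the gene, although the members were listed with earlier results of the same data known.

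Cd34 was chosen on the Blimp-1 experiment, where it had 25.5, 9.26 and 19.7 CPM in Control and 219, 278 and 313 CPM in Blimp-1-deficient libraries. Every Blimp-1-deficient library was far above the highest Control library, with means of 18.2 ± 8.25 (SD, n = 3) and 270 ± 47.7 CPM (SD, n = 3). The ratio of means was 14.9, and 11.9 without Control replicate 2, and the fitted log2 fold changes were 3.83 and 3.59. Of the exon bases of Cd34, 2.03% overlap the antisense gene Gm16897, and the counting is not stated to use strand, so reads in that stretch cannot be assigned to one of them.

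CD34 is also known from endothelium, so 13 endothelial markers were read beside it. Their summed CPM was 236, 98.9 and 173 in Control and 363, 343 and 292 in Blimp-1-deficient libraries, and so moved with Cd34. Pecam1, an adhesion molecule of endothelium and leukocytes, took the largest part of that sum, with 80.8, 31.7 and 72.2 CPM in Control and 175, 160 and 171 CPM in Blimp-1-deficient libraries. Cdh5, the adhesion protein of endothelial junctions, had 32.7, 17.8 and 21.0 against 38.2, 34.5 and 24.5 CPM, which overlap. None of the 13 was called by edgeR with all libraries (median 0.63, with 2 at an unadjusted p below 0.05 and 1 called by each of DESeq2 and voom), and Pecam1 was called without Control replicate 2. In the IL-33 experiment Cdh5, Egfl7, Emcn, Plvap and Ramp2 fell while Cd34 and Pecam1 rose (median of the 12 markers tested -0.91). The part of endothelial cells in the Cd34 values was not tested. Unstimulated replicate 3, highest in its group for Cd34 and Gata2, was also highest for Plvap (48.5 CPM), Emcn (43.2 CPM) and Cdh5 (42.9 CPM). Fibroblast markers, another source of Cd34, summed to 109 and 257 CPM in Control replicates 1 and 3, 4284 CPM in Control replicate 2 and 298 to 576 CPM in Blimp-1-deficient libraries. With all libraries edgeR called 0 of the 11 (median log2 fold change -0.30, 1 at an unadjusted p below 0.05, with 1 higher in DESeq2 and 5 in voom). Without Control replicate 2, 5 were higher (Pdgfra, Pdgfrb, Dcn, Lum and Mfap5) and 0 lower, with a median of 1.33 against 0.01 over all genes and shares of 8.25% and 5.72% of all genes. After IL-33 they summed to 155 to 393 CPM, against 334 to 691 CPM unstimulated. The part of fibroblasts in the Cd34 values was not tested.

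**Figure D4:**
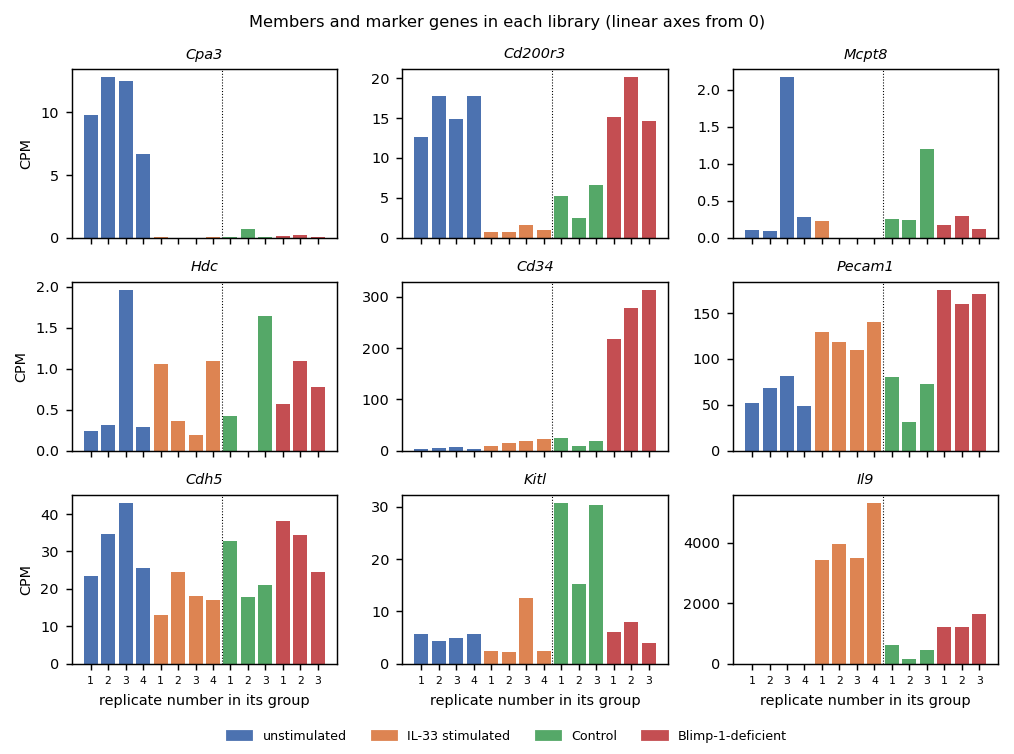
CPM (linear vertical axes from 0) of 4 of the 8 genes, Cpa3, Hdc, Cd34 and Kitl, and of 5 other genes in each of the 14 libraries, numbered by replicate within the group and coloured by group, with the experiments on either side of the dotted line. Cd200r3 is at 14.6 CPM or more in the Blimp-1-deficient libraries, where Cpa3 is near 0, Mcpt8 and Hdc share their highest libraries, and Cdh5 is at 24.5 to 38.2 CPM in the Blimp-1-deficient libraries.

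Among 29 haematopoietic progenitor genes, 23 passed the filter in the IL-33 experiment, 2 rose (Cd34 and Cd93) and 6 fell (Kit, Gata1, Hlf, Cd48, Cd27 and Runx1), with a median log2 fold change of -0.26, and without IL-33 stimulated replicate 3 Gata2 and Erg were also lower. Cd27, a TNF receptor family member of lymphocytes and progenitors, fell from 10.1 to 11.0 CPM to 1.58 to 2.59 CPM (log2 fold change -2.39, SE 0.20, adjusted p = 0.000108). Cd93, a surface lectin of early progenitors and endothelium, rose by 0.48 (SE 0.11, adjusted p = 0.0104). Of 23 tested for Blimp-1 loss (median 0.18), edgeR called none besides Cd34, which was chosen on this contrast, while with Cd34 included 5 had an unadjusted p below 0.05, DESeq2 called 3 higher and voom 6 higher. Leaving out Control replicate 2, 24 were tested and 6 besides Cd34 were higher (Gata2, Lmo2, Procr, Cd93, Runx1 and Hhex) and 0 lower, against 8.25% higher and 5.72% lower over all genes, with a median of 0.41 against 0.01. Of these, Lmo2, a transcriptional adaptor that binds GATA factors, had 1.56, 0.244 and 1.44 CPM in Control and 4.26, 4.63 and 3.96 CPM in Blimp-1-deficient libraries (log2 fold change 1.53, SE 0.16, adjusted p = 0.00235 without Control replicate 2, and 1.80, adjusted p = 0.18 with it). Cd93 had 96.2, 65.0 and 121 against 203, 261 and 249 CPM (1.14, SE 0.13, adjusted p = 0.00315 without it, and 1.33, adjusted p = 0.071 with it).

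Of 11 sialomucins related to CD34 and the selectins that bind them, 10 passed the filter in the IL-33 experiment, Cd34 rose, and Podxl, Selp and Emcn fell (median -0.24), and without IL-33 stimulated replicate 3 Cd164 was also higher and Spn lower. Podxl, the podocalyxin relative of CD34, went from 7.85 to 17.2 CPM to 3.38 to 6.84 CPM (log2 fold change -1.24, SE 0.33, adjusted p = 0.0212). Between Control and Blimp-1-deficient cells 9 were tested (median 0.27) and none besides Cd34, which was chosen on this contrast, was called by edgeR, with or without Control replicate 2. Cd164 and Spn, sialomucins of leukocytes, had log2 differences there of 0.07 (SE 0.10, adjusted p = 0.863) and -0.10 (SE 0.19, adjusted p = 0.902).

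Ly6a, which encodes Sca-1 (chromosome 15, 74994877 to 74998031), was the most abundant of the 8 transcripts and passed the test in neither comparison. It had 1639, 1002, 1225 and 1348 CPM unstimulated, 1628, 1443, 1349 and 1116 CPM after IL-33, 1547, 1235 and 1568 CPM in Control and 1413, 1509 and 1597 CPM in Blimp-1-deficient libraries. The groups overlapped in both experiments, with log2 differences of 0.09 (SE 0.17, edgeR adjusted p = 0.721) and 0.06 (SE 0.16, adjusted p = 0.945). Of its 75-base exon stretches, 6.33% also occur in Ly6c1 or Ly6i, so a small share of its reads could be split between them.

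Among 15 genes of the Ly6 family in the tables, 6 passed the filter in the IL-33 experiment, 0 rose and 1 fell (median -0.04). This was Ly6e, from 2127 to 2573 CPM down to 1246 to 1688 CPM (log2 fold change -0.64, SE 0.12, adjusted p = 0.0042). Without IL-33 stimulated replicate 3, 7 passed and Ly6i was also higher. Of 7 that passed in the Blimp-1 experiment (median 0.06), 0 rose and Ly6c2, a surface antigen of lymphocytes and monocytes, fell from 6.11, 8.52 and 4.04 CPM to 0.387, 0.206 and 0.569 CPM (log2 fold change -3.97, SE 0.49, adjusted p = 0.0317). Leaving out Control replicate 2, Ly6c2 and Ly6g were lower (median 0.27). Ly6a and Ly6c2, members of 1 family, thus had different test results in that comparison, and the difference between the genes was not tested.

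Genes of ILC precursors were read beside Kit and Ly6a, since both mark such cells. Of 18 genes, 17 passed the filter in the IL-33 experiment, 1 rose (Pdcd1) and 8 fell (Tcf7, Id2, Gata3, Bcl11b, Itgb7, Il7r, Il18r1 and Kit), with a median log2 fold change of -0.37. Without IL-33 stimulated replicate 3 these counts became 3 higher (Nfil3, Ets1 and Pdcd1) and 11 lower, against 27.5% and 29.7% of all genes. Tcf7, the factor TCF-1 of early ILC development, fell from 13.2 to 18.8 CPM to 4.93 to 7.40 CPM (log2 fold change -1.32, SE 0.19, adjusted p = 0.00119). For Blimp-1 loss 0 of 17 were called by edgeR (median 0.13), 6 had an unadjusted p below 0.05, DESeq2 called 2 higher and 1 lower, and voom 4 higher and 1 lower. Leaving out Control replicate 2, Zbtb16, Tcf7, Il7r and Il18r1 were higher and Id2 and Itga4 lower, against 8.25% and 5.72% of all genes.

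The wider mast cell and basophil list of 33 genes, which includes Cpa3, Kit, Gata2, Hdc and Tph1, had 15 members past the filter in the IL-33 experiment. Besides Cpa3, which was chosen on this contrast, 2 rose (Tph1 and Srgn) and 6 fell (Kit, Cd200r3, Rab27b, Hpgds, Alox5 and Gata1), with a median log2 fold change of -0.97, and without IL-33 stimulated replicate 3 Mitf was also higher and Gata2 lower. Alox5, the 5-lipoxygenase of leukotriene synthesis, fell from 383 to 458 CPM to 17.2 to 33.9 CPM (log2 fold change -3.92, SE 0.22, adjusted p = 1.56e-05). Srgn, the granule proteoglycan serglycin, rose by 0.95 (SE 0.11, adjusted p = 0.000364). Genes of this list that ILC2s also express, such as Alox5 and Hpgds, were therefore among those that changed, and the list names no cell. For Blimp-1 loss 0 of 16 were called by edgeR (median -0.02), 3 had an unadjusted p below 0.05, and DESeq2 and voom each called 1 higher and 1 lower. When Control replicate 2 was left out, Gata2 and Cd200r3 were higher and Alox5 lower (-1.07, SE 0.13, adjusted p = 0.00425).

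Levels in all 4 groups can be set side by side only as a description, in TPM recomputed without the 7 rRNA-related loci and without the pair of libraries that stand apart. Mean Kit was lowest in IL-33 stimulated cells (54.7 TPM), followed by Control (64.8 TPM), Blimp-1-deficient (86.2 TPM) and unstimulated cells (125 TPM), and no neighbours in that order overlapped. In CPM, scaled within each experiment, the same libraries gave Kit at 173 (165 to 185) after IL-33 and 148 (146 to 150) in Control. The order of these groups thus turned with the measure, and in CPM IL-33 stimulated and Blimp-1-deficient cells (163 to 210) overlapped. Cd34 ran from 2.34 TPM unstimulated through 5.79 TPM after IL-33 and 12.1 TPM in Control to 153 TPM in Blimp-1-deficient cells, again with no overlap between neighbours. Kitl ran from 1.11 TPM after IL-33 through 3.04 TPM unstimulated and 4.24 TPM in Blimp-1-deficient cells, which overlapped, to 20.1 TPM in Control. Control cells were thus the group with most Kitl and Blimp-1-deficient cells the group with most Cd34.

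Tph1 was at 12.6 TPM unstimulated, 82.1 TPM after IL-33, 308 TPM in Blimp-1-deficient and 369 TPM in Control cells, and the last 2 overlapped. Cpa3 was at 24.2 TPM unstimulated and at 0.0629, 0.130 and 0.345 TPM in IL-33 stimulated, Control and Blimp-1-deficient cells, where neighbours in that order overlapped. The IL-33 stimulated (0 to 0.126 TPM) and Blimp-1-deficient groups (0.137 to 0.583 TPM) did not overlap in TPM, on 0 to 2 and 5 to 17 counts. In CPM they did overlap, with 0.0708 CPM in IL-33 stimulated replicate 4 and 0.0517 CPM in Blimp-1-deficient replicate 3. Gata2 ran from 0.530 TPM after IL-33 through 1.36 TPM in Control and 1.51 TPM unstimulated to 2.71 TPM in Blimp-1-deficient cells, and both upper pairs of neighbours overlapped. Hdc stayed between 0.367 and 0.637 TPM with overlap at every step. Ly6a was at 3284 TPM after IL-33 and 3780 TPM unstimulated, which overlapped, and at 5036 TPM in Control and 5169 TPM in Blimp-1-deficient cells, which overlapped. On this per-length scale Ly6a had the highest mean of the 8 genes in all 4 groups, and the lowest mean was that of Hdc in unstimulated cells and of Cpa3 in the other 3 groups.

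**Figure D5:**
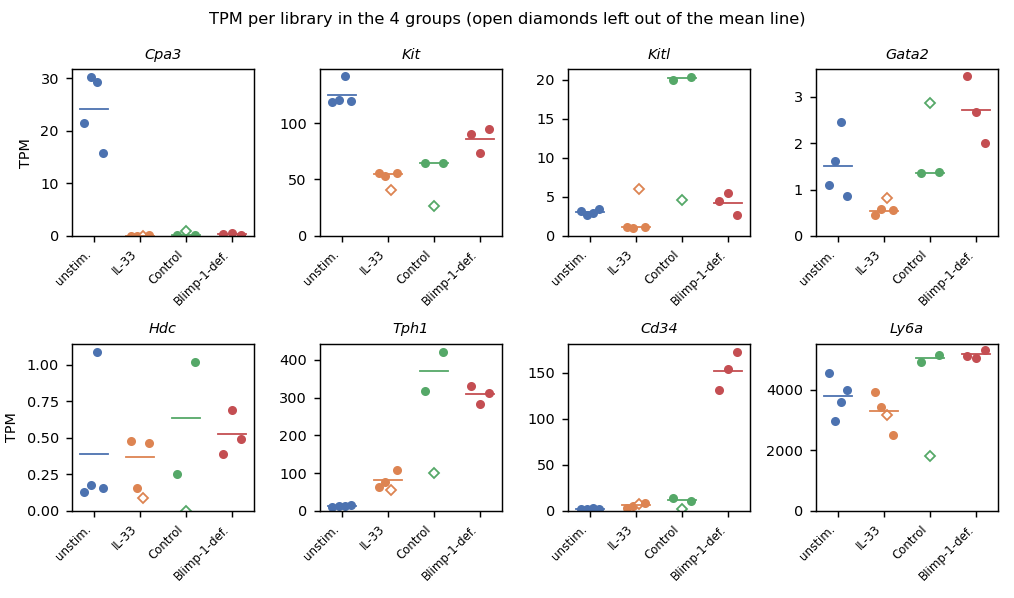
TPM per library of each gene in the 4 groups (linear axes from 0), with lines at the group means and open diamonds for the 2 libraries left out of the means. Each gene has its own pattern, with Cpa3 near 0 outside the unstimulated group, Kitl highest in Control and Cd34 highest in Blimp-1-deficient cells.

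The genes whose pattern over libraries was most like that of a member were found by the root mean square difference of centred log2 CPM, over genes with a mean of at least 5 CPM. Over the 8 libraries of the IL-33 experiment the nearest to Cpa3 was Ccr9, a chemokine receptor (difference 0.693), to Tph1 Tnf (0.176) and to Cd34 Coq8a (0.318), and these stayed nearest without IL-33 stimulated replicate 3 (0.598, 0.164 and 0.293). The nearest genes to Kit (Gclm, 0.0640), Kitl (Tanc2, 0.106), Gata2 (Selp, 0.173), Hdc (Rab31, 0.746) and Ly6a (Psme1, 0.122) were replaced by others when that library was left out. Over the 6 libraries of the Blimp-1 experiment Lif was nearest to Cd34 with and without Control replicate 2 (0.564 and 0.233). P2ry2 was nearest to Kitl (0.342), followed by Itga6 (0.348), which was nearest without Control replicate 2 (0.314). For Kit, Tph1, Gata2, Hdc and Ly6a the nearest gene there changed with that library. These are likenesses over few libraries and carry no test.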

How the data were processed

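The counts per gene were made by the authors with Subread after HISAT2 alignment to GRCm38, per the study's methods, while the submitters' processing notes name Bowtie2, Subread, DESeq2 and mm10, so the aligner is not settled, and whether strand was used is not given in the sources used here. TPM values were computed and deposited by the authors. From the deposited counts, each experiment was fitted alone in edgeR 4.0.16 (R 4.3.3; TMM scaling, default filter on low counts, two-sided quasi-likelihood test, Benjamini-Hochberg adjustment over all genes tested, threshold 0.05), and CPM use the TMM-scaled library sizes. Where only "adjusted p" is printed, it is from this fit. All value columns were used. DESeq2 1.42.0, limma 3.58.1 on log2(TPM + 1) and on log2(TPM + 0.1), voom with sample weights, other scalings and filters, a replicate block and leaving out each library were alternatives. The scripts were tested on simulated data.

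Named genes are the 8 members, Prdm1, from each of 17 lists the 3 genes with the highest mean TPM and the 3 called genes with the largest log2 fold change in either comparison, and the genes nearest in pattern to a member. Genes given only as names of a list's calls follow from the call. Members and lists were chosen with earlier results of these data known. The labels give each library 1 mouse. Whether unstimulated and stimulated libraries share mice is not given, so p-values there measure the spread between libraries. The detection floor of 3 counts was 0.0859 to 0.296 CPM in the IL-33 experiment and 0.0310 to 0.731 CPM in the Blimp-1 experiment. The interval of the Cpa3 ratio covers counting error only, since reads carry no molecular identifiers.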

Additional observations from a re-analysis of the deposited data

Results flagged for a closer look

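Among 16 groups of 4 libraries examined (8 genes in the unstimulated and IL-33 stimulated groups), 3 had 1 library farther from the others than Dixon's criterion allows, and chance flags about 1 in 20 groups. Kitl was at 12.5 CPM in IL-33 stimulated replicate 3, against 2.20 to 2.41 CPM in the other 3. Cd34 was at 7.18 CPM in unstimulated replicate 3, against 3.92 to 4.35 CPM. Hdc was at 1.95 CPM in the same unstimulated library, against 0.243 to 0.315 CPM.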

How the results depend on the processing

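Of the 7 genes not chosen on the IL-33 comparison 3 were called, a share near the 32.3% of all genes, and 3 to 5 when each library was left out in turn. With all libraries limma on either TPM scale called 2 higher and 2 lower, adding Gata2. Voom with sample weights called 2 higher and 3 lower, adding Gata2 and Kitl. Of the 6 not chosen on the Blimp-1 comparison 0 were called, and Gata2 alone without Control replicate 2. As a description only, since Cpa3, Cd34 and Kitl were chosen on these contrasts and their calls are no test, the genes past the threshold among all 8 were 4 for IL-33 (4 to 6 when leaving out libraries) and 1 for Blimp-1, against 2 with DESeq2, with a mean count of at least 50 and with voom, 0 with limma on log2(TPM + 1) or log2(TPM + 0.1), and 0 to 3 when each library was left out, with 3 only without Control replicate 2. The labels do not say whether same-numbered unstimulated and stimulated libraries share a mouse. The deviations of such pairs correlated by -0.145, 0.217, 0.282 and 0.177, and by -0.133, -0.134 and 0.122 in the Blimp-1 experiment. Stimulated replicates 2, 3 and 4 correlated best with the unstimulated library of their own number, and stimulated replicate 1 with unstimulated replicate 4 (0.261). Unstimulated replicates 1 and 4 correlated best with stimulated libraries of another number. The numbers were therefore not taken to pair the libraries, and a shared mouse is not settled. With a replicate block 4 genes were called in the IL-33 and 0 in the Blimp-1 comparison. Kit, Tph1 and Cd34 kept direction and call in all 18 alternatives of the IL-33 comparison. Reversed log2 values belong to genes that were not called with all libraries, and of the reversed values only that of Gata2 without Control replicate 2 was itself called. For IL-33 these were Hdc with DESeq2 (-0.0040), library size alone (-0.16), the rRNA-related loci left out (-0.12) and no filter (-0.0124), with -0.29 to 1.29 when leaving out libraries, Ly6a with library size (-0.069), the loci left out (-0.0263) and limma (-0.23 with either pseudocount), with -0.0019 to 0.28, and Kitl with -1.14 to 0.14. For Blimp-1 these were Hdc with DESeq2 (0.0816), relative log expression factors (0.0117), library size (0.20), the loci left out (0.00087), no filter (0.0151) and the block (0.39), with -0.35 to 1.37, Gata2 with library size (0.91), limma (0.95 and 1.69), voom (0.76) and the block (0.17), with -0.49 to 0.90, Tph1 with library size (0.20) and limma (1.62 and 1.68), with -0.34 to 0.088, and Ly6a with voom (-0.0028), with -0.0383 to 0.12. The cause was not tested. The median over all genes moved from 0.06 to -0.10 with library size and -0.25 with limma on log2(TPM + 1) for IL-33, and from -0.02 to 0.45 and 1.28 for Blimp-1. The genes called for IL-33 were 2508 higher and 2484 lower, against 1805 and 3691 with library size alone. Cpa3 in activated cells is limited by counting, and Hdc and Gata2 by the spread between libraries.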
